A study of Mus musculus with 2 samples.

Results

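Voltage-gated sodium and calcium channel subunits were examined across the nucleus classes of mouse heart in 1 library of CF-KI nuclei and 1 library of control nuclei. Members were taken by gene symbol alone: the letters Scn, a number and a or b for sodium channel genes, and Cacn with a, b or g and a number for calcium channel genes. Of 32245 symbols in the feature list, 40 matched, 14 of them sodium channel and 26 calcium channel genes. A member counted as measured with at least 20 unique molecular identifiers (UMIs, each standing for 1 captured RNA molecule) over all barcodes of both libraries, which 24 members reached. Just inside this limit were Scn4a with 40 UMIs and Cacng7 with 42, and just outside it were Scn2b with 17, Cacna1b with 11, Cacna2d4 with 11 and Cacna1i with 10.

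The study asked what constant activation of NLRP3, the sensor of an inflammasome, does to the heart when it is limited to fibroblasts. CF-KI mice were homozygous for the A350V substitution in Nlrp3 and carried Tcf21-MerCreMer, a tamoxifen-inducible Cre recombinase driven from the fibroblast and epicardial gene Tcf21 (Tcf21-MerCreMer;Nlrp3-A350V/A350V). Control mice carried the same Cre with wild-type Nlrp3 (Tcf21-MerCreMer;Nlrp3-WT/WT). Mice of both genotypes were C57Bl6/J males of 3.5 months and had tamoxifen injections, so neither group shows hearts without Cre or without tamoxifen. Per the series' design text, the mutant allele was not active in cells without Cre. How many animals gave a library is not given in the sources used here, and with 1 library per group no difference between the groups could be tested.

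Voltage-gated sodium and calcium channels are built around 1 large pore-forming alpha subunit with a voltage sensor in each of its repeats. Sodium channel beta subunits are single-span membrane proteins that tune gating and cell adhesion, whereas calcium channel beta subunits sit inside the cell and carry the pore to the membrane, and alpha2delta subunits sit outside it. In cardiac muscle the sodium channel starts the action potential and the L-type calcium channel admits the calcium that triggers contraction. T-type calcium channels and the second L-type pore gene are known from pacemaker and atrial tissue.

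The promoters of Scn7a, Cacna2d2 and Scn10a are shown because the RNA of each was concentrated in a different class of the control library. By share of the control UMIs of kept nuclei, these were fibroblast-like (86.8%, 1768 UMIs), atrial cardiomyocyte-like (61.1%, 22 UMIs) and mesothelial-like nuclei (63.6%, 21 UMIs). The sequences are RefSeq windows on GRCm38.p6 from 250 bases before to 50 bases after the annotated start, read on the gene's strand, and capitals mark every CG dinucleotide. They lie at chr2:66784861-66785160 (Scn7a, minus strand), chr9:107399630-107399929 (Cacna2d2, plus strand) and chr9:119718983-119719282 (Scn10a, minus strand).
Scn7a: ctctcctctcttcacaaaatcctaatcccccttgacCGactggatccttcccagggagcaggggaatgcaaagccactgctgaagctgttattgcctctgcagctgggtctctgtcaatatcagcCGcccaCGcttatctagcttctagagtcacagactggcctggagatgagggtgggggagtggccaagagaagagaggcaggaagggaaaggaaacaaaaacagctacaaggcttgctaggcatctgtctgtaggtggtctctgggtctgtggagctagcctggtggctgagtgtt
Cacna2d2: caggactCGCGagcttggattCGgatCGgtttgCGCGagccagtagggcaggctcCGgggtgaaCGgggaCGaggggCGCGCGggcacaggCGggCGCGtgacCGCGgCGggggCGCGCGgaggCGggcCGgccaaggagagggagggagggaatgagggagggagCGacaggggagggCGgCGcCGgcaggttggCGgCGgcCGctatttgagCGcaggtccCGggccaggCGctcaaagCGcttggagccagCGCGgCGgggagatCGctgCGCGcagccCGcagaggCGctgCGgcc
Scn10a: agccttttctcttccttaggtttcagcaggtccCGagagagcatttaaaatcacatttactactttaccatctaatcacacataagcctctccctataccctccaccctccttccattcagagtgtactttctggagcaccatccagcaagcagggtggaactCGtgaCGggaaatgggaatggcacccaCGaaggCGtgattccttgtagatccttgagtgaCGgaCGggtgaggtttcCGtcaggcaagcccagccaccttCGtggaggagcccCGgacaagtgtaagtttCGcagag
The 3 windows differed in base composition. The Cacna2d2 window held 43 CG dinucleotides at 75.7% G and C, the Scn10a window 11 at 51.7%, and the Scn7a window 3 at 54.0%. Over 32851 windows of the same length in the table the medians were 7 CG dinucleotides and 52.7% G and C. The GATA-type word AGATAA, searched on both strands, occurred in the Scn7a window and in 11.2% of all windows. The GC-box word GGGCGG, which shares no overlap with AGATAA, was found on either strand in the Scn7a and Cacna2d2 windows, in 35.7% of all windows and in 13 of the 26 windows of measured members. The table held 17 of the 24 measured members. Scn3a, Scn3b, Cacna1a, Cacna1g and Cacna1h were among those not in it.

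The deposited matrices held 15077 CF-KI and 11257 control barcodes with 21603653 and 18040776 UMIs. After filters on genes, mitochondrial UMIs and doublets, 9351 CF-KI nuclei (62.0%) and 9998 control nuclei (88.8%) were kept. The CF-KI library stood apart in its mitochondrial share, with a median of 14.2% per barcode against 3.46%. It also had more cardiomyocyte RNA in most other classes, as given beside the results. Smooth muscle-like, platelet-like and erythroid-like nuclei were exceptions. The control library held 84 airway epithelial-like nuclei although its tissue label is cardiac, and the CF-KI library held 0. Among kept nuclei 23 barcodes occurred in both libraries. Nlrp3 had 4 UMIs in CF-KI fibroblast-like nuclei and 0 in control ones, where 3 UMIs would be 0.742 CPM (UMIs per 1000000 non-mitochondrial UMIs). These 3′ counts do not read the substitution. Tcf21, which drives the Cre, stood at 133 CPM and 130 CPM there.

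Classes were named from marker genes and carry the ending -like. No channel member or partner gene entered the clustering, so levels across classes were not used to form the classes. The main classes held, in CF-KI and control, 2745 and 3484 fibroblast-like, 2326 and 2106 non-atrial cardiomyocyte-like, 1198 and 811 endothelial-like, 1058 and 1076 endocardial-like, 523 and 591 mesothelial-like, 409 and 846 macrophage-like and 337 and 455 pericyte-like nuclei. Cardiomyocyte-like nuclei without raised atrial markers are called non-atrial, since at most 1 of 4 ventricular markers was raised in any of their sub-clusters. Fibroblast markers were highest in fibroblast-like nuclei for 11 of 11 genes in both libraries, macrophage markers for 10 of 10, mesothelial markers for 8 of 8 and endocardial markers for 6 of 6. In CF-KI and control the count was 9 and 8 of 12 for non-atrial cardiomyocyte-like, 6 and 8 of 9 for pericyte-like and 6 and 7 of 8 for endothelial-like nuclei.

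Levels are CPM of non-mitochondrial UMIs summed over the nuclei of a class, with exact 95% Poisson intervals in parentheses. These intervals cover counting error only. Where a pair of values names no library, the CF-KI value comes first. Because the counts come from the 3′ end of RNA in nuclei, levels are compared between classes for 1 gene and not between genes. Free RNA in droplets gives every class some RNA of the others. The level it could give was estimated for each class from marker genes of other classes, as the member's CPM over all kept nuclei times the median marker share. For fibroblast-like nuclei the share was estimated at 55.5% for CF-KI versus 26.3% for the control, and for non-atrial cardiomyocyte-like nuclei 18.8% and 7.73%. A level is called above the free-RNA estimate where its lower bound exceeded it.

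**Figure D1:**
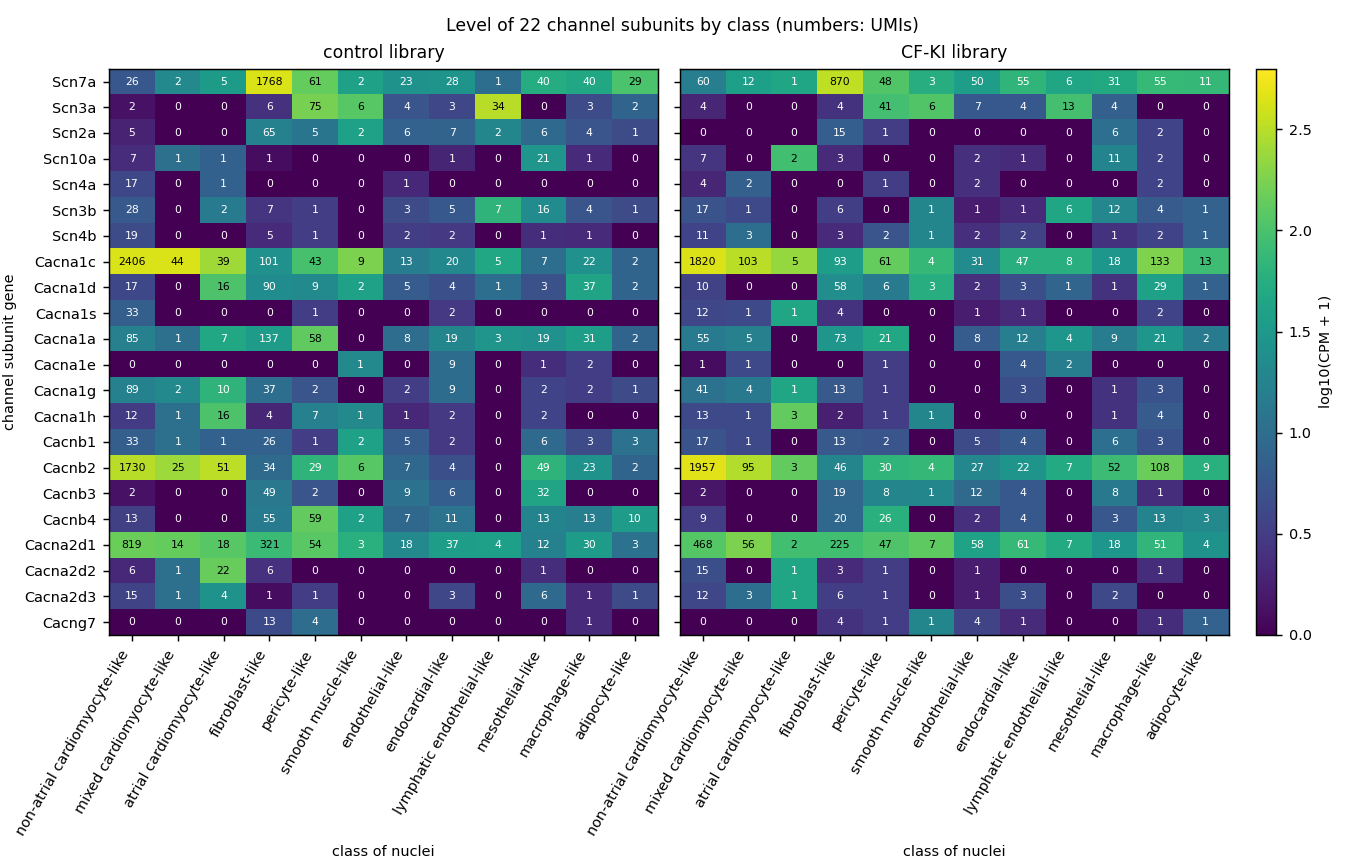
Heat map of log10(CPM + 1) for 22 measured channel subunits (rows) in 12 classes of nuclei (columns), control library on the left and CF-KI library on the right; the number in each cell is the UMI count. Cacna1c and Cacnb2 are brightest in cardiomyocyte-like classes, Scn7a in fibroblast-like nuclei, and Scn3a in lymphatic endothelial-like and pericyte-like nuclei.

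Scn7a encodes an atypical sodium channel that is known to respond to extracellular sodium rather than to voltage. It was a fibroblast gene here, with 870 UMIs and 339 CPM (317 to 362) in CF-KI fibroblast-like nuclei and 1768 UMIs and 437 CPM (417 to 458) in control ones. Its next class was pericyte-like nuclei, at 108 CPM (79.3 to 143) in CF-KI versus 136 CPM (104 to 175) in the control, again above the free-RNA estimate. In both libraries the fibroblast interval lay above that of every other class. Adipocyte-like nuclei followed in the control at 99.9 CPM (66.9 to 144), and their interval overlapped that of pericyte-like nuclei. Of the main classes, Scn7a was lowest in non-atrial cardiomyocyte-like nuclei, at 14.6 CPM and 4.72 CPM, where the free-RNA estimates were 19.1 CPM and 10.7 CPM.

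The fibroblast signal was spread over both large fibroblast-like clusters. In the cluster led by Rgs17 and Msc, the Scn7a level was 316 CPM (288 to 346) in CF-KI versus 416 CPM (387 to 447) in the control. In the cluster led by Cilp, Myoc and Pi16 it was 373 CPM (336 to 412) and 452 CPM (425 to 481). The CF-KI level was thus lower in each cluster.

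Scn3a, a pore-forming subunit best known from the nervous system, marked vessel-associated classes. Pericyte-like nuclei held 41 UMIs in CF-KI, a level of 91.9 CPM (65.9 to 125), and 75 in the control, a level of 167 CPM (132 to 210). Control lymphatic endothelial-like nuclei reached 314 CPM (217 to 439) from 34 UMIs, above pericyte-like nuclei, while its interval overlapped that of smooth muscle-like nuclei. The same class stood at 93.4 CPM (49.8 to 160) from 13 UMIs in CF-KI, so the intervals of the 2 libraries did not overlap there. Smooth muscle-like nuclei had 6 UMIs in each library, 109 CPM in CF-KI versus 118 CPM in the control. Endothelial-like, endocardial-like and fibroblast-like nuclei had 7 UMIs or fewer each in either library.

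The remaining sodium channel pores were sparse. Scn2a, a neuronal pore subunit, had 65 of its control UMIs in fibroblast-like nuclei, a level of 16.1 CPM (12.4 to 20.5), and 15 in CF-KI, a level of 5.84 CPM (3.27 to 9.63). Scn10a, known from sensory neurons, had its largest share in mesothelial-like nuclei, with 11 UMIs and 17.3 CPM (8.63 to 30.9) in CF-KI versus 21 UMIs and 27.9 CPM (17.3 to 42.6) in the control. Non-atrial cardiomyocyte-like nuclei had 7 Scn10a UMIs in each library. Scn4a, the pore of skeletal muscle, had 4 and 17 UMIs in non-atrial cardiomyocyte-like nuclei.

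Among neighbouring measured sodium channel genes on chromosome 2, Scn3a was found mainly in other classes than Scn2a and Scn7a, which shared a class. On chromosome 9 (GRCm38, GENCODE vM21) Scn10a lies at 119608456-119719322 and Scn11a at 119753759-119825456, both on the minus strand. Scn10a had its largest share in mesothelial-like nuclei, and Scn11a had 1 UMI. On chromosome 2 Scn3a (65457118-65567627), Scn2a (65620771-65767447), Scn1a (66270778-66440840), Scn9a (66480080-66634962) and Scn7a (66673425-66784914) follow each other. Scn3a was found in pericyte-like and lymphatic endothelial-like nuclei, Scn2a and Scn7a in fibroblast-like nuclei, while Scn1a had 4 UMIs and Scn9a 0.

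Of the sodium channel beta subunits, Scn3b was above the free-RNA estimate in both libraries in lymphatic endothelial-like nuclei (6 and 7 UMIs), mesothelial-like nuclei (12 and 16) and non-atrial cardiomyocyte-like nuclei (17 and 28). Scn4b, a subunit linked to resurgent sodium current, had 11 and 19 UMIs in non-atrial cardiomyocyte-like nuclei, at 2.68 CPM and 3.45 CPM.

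Cacna1c, the pore of the main cardiac L-type calcium channel, was the member with the most UMIs, 6132 over all barcodes. In non-atrial cardiomyocyte-like nuclei it had 1820 UMIs and 443 CPM (423 to 464) in CF-KI versus 2406 UMIs and 437 CPM (419 to 454) in the control. Outside the cardiomyocyte classes it was above the free-RNA estimate in CF-KI pericyte-like nuclei alone, at 137 CPM (105 to 176) against an estimate of 102 CPM. Control pericyte-like nuclei stood at 96.0 CPM (69.5 to 129). Fibroblast-like nuclei had 36.2 CPM and 25.0 CPM, below the estimates of 109 CPM and 49.3 CPM.

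Cacna1d, the L-type pore known from pacemaker and atrial cells, was found in non-muscle classes and in control atrial cardiomyocyte-like nuclei. Macrophage-like nuclei stood at 39.0 CPM (26.1 to 56.0) in CF-KI versus 41.8 CPM (29.4 to 57.6) in the control, and fibroblast-like nuclei at 22.6 CPM (17.1 to 29.2) and 22.2 CPM (17.9 to 27.3). All 4 levels were above the free-RNA estimate. Non-atrial cardiomyocyte-like nuclei had 2.44 CPM and 3.08 CPM, below both of these classes with no overlap of intervals. Atrial cardiomyocyte-like nuclei of the control library stood above both, at 103 CPM from 16 UMIs. The annotation places Chdh and Dcp1a on the opposite strand within or across the Cacna1d gene, and whether the counting used strand is not given in the sources used here. Cacna1s, the skeletal muscle L-type pore, had 12 and 33 UMIs in non-atrial cardiomyocyte-like nuclei, 2.92 CPM and 5.99 CPM.

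Cacna1a, the pore of the neuronal P/Q-type channel, led in pericyte-like nuclei. It had 21 UMIs and 47.1 CPM (29.1 to 71.9) there in CF-KI versus 58 UMIs and 129 CPM (98.3 to 167) in the control, where the interval lay above that of every other class of at least 15 nuclei. Fibroblast-like nuclei had 28.4 CPM (22.3 to 35.7) and 33.9 CPM (28.4 to 40.0), and macrophage-like nuclei 28.2 CPM and 35.0 CPM. Cacna1e, the R-type pore, had 4 and 9 UMIs in endocardial-like nuclei, at 4.87 CPM and 8.74 CPM, and 0 UMIs in fibroblast-like nuclei of either library. Of the T-type pores, Cacna1g had 41 and 89 UMIs in non-atrial cardiomyocyte-like nuclei, at 9.99 CPM (7.17 to 13.6) and 16.1 CPM (13 to 19.9). Cacna1h had 13 and 12 UMIs in that class, at 3.17 CPM and 2.18 CPM.

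Cacnb2, the main cardiac calcium channel beta subunit, shared the cardiomyocyte pattern of Cacna1c. Non-atrial cardiomyocyte-like nuclei held 1957 UMIs and 477 CPM (456 to 498) in CF-KI versus 1730 UMIs and 314 CPM (299 to 329) in the control. Mesothelial-like nuclei stood at 81.7 CPM (61.0 to 107) and 65.0 CPM (48.1 to 86.0), which was above the free-RNA estimate in the control, where it was 32.3 CPM, and not in CF-KI, where it was 77.8 CPM. Fibroblast-like nuclei had 17.9 CPM and 8.41 CPM, below the estimates of 111 CPM and 35.5 CPM.

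The other beta subunits did not share the Cacnb2 pattern. Cacnb4 was led by pericyte-like nuclei, with 26 UMIs and 58.3 CPM (38.1 to 85.4) in CF-KI versus 59 UMIs and 132 CPM (100 to 170) in the control. Cacnb3 led in control mesothelial-like nuclei, at 42.5 CPM (29.0 to 59.9) from 32 UMIs, and had 12.6 CPM (5.43 to 24.8) from 8 UMIs in CF-KI. Cacnb1, the beta subunit of skeletal muscle, had 17 and 33 UMIs in non-atrial cardiomyocyte-like nuclei, at 4.14 CPM and 5.99 CPM, and 13 and 26 in fibroblast-like nuclei, at 5.06 CPM and 6.43 CPM.

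Cacna2d1, the alpha2delta subunit of the cardiac L-type channel, was above the free-RNA estimate in cardiomyocyte-like, pericyte-like and fibroblast-like nuclei of both libraries. Non-atrial cardiomyocyte-like nuclei held 468 UMIs and 114 CPM (104 to 125) in CF-KI versus 819 UMIs and 149 CPM (139 to 159) in the control. Pericyte-like nuclei stood at 105 CPM (77.4 to 140) and 121 CPM (90.6 to 157), and these intervals overlapped those of non-atrial cardiomyocyte-like nuclei. Fibroblast-like nuclei had 225 and 321 UMIs, at 87.6 CPM (76.5 to 99.8) and 79.4 CPM (70.9 to 88.5), above the free-RNA estimates of 47.0 CPM and 24.2 CPM. Cacna2d3 had 12 and 15 UMIs in non-atrial cardiomyocyte-like nuclei. Cacng7, the only measured member of the gamma family, had 4 and 13 UMIs in fibroblast-like nuclei and 1 and 4 in pericyte-like ones.

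The cardiomyocyte channel genes thus had different ranges outside muscle. In fibroblast-like nuclei Cacna1c and Cacnb2 were below the free-RNA estimate and Cacna2d1 above it, and the fibroblast to non-atrial cardiomyocyte ratio of Cacna2d1 was 0.768 in CF-KI versus 0.534 in the control. The 12 cardiomyocyte markers had fibroblast to non-atrial cardiomyocyte ratios of 0.164 to 1.38 in CF-KI versus 0.0473 to 1.10 in the control, with medians of 0.321 and 0.127.

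**Figure D2:**
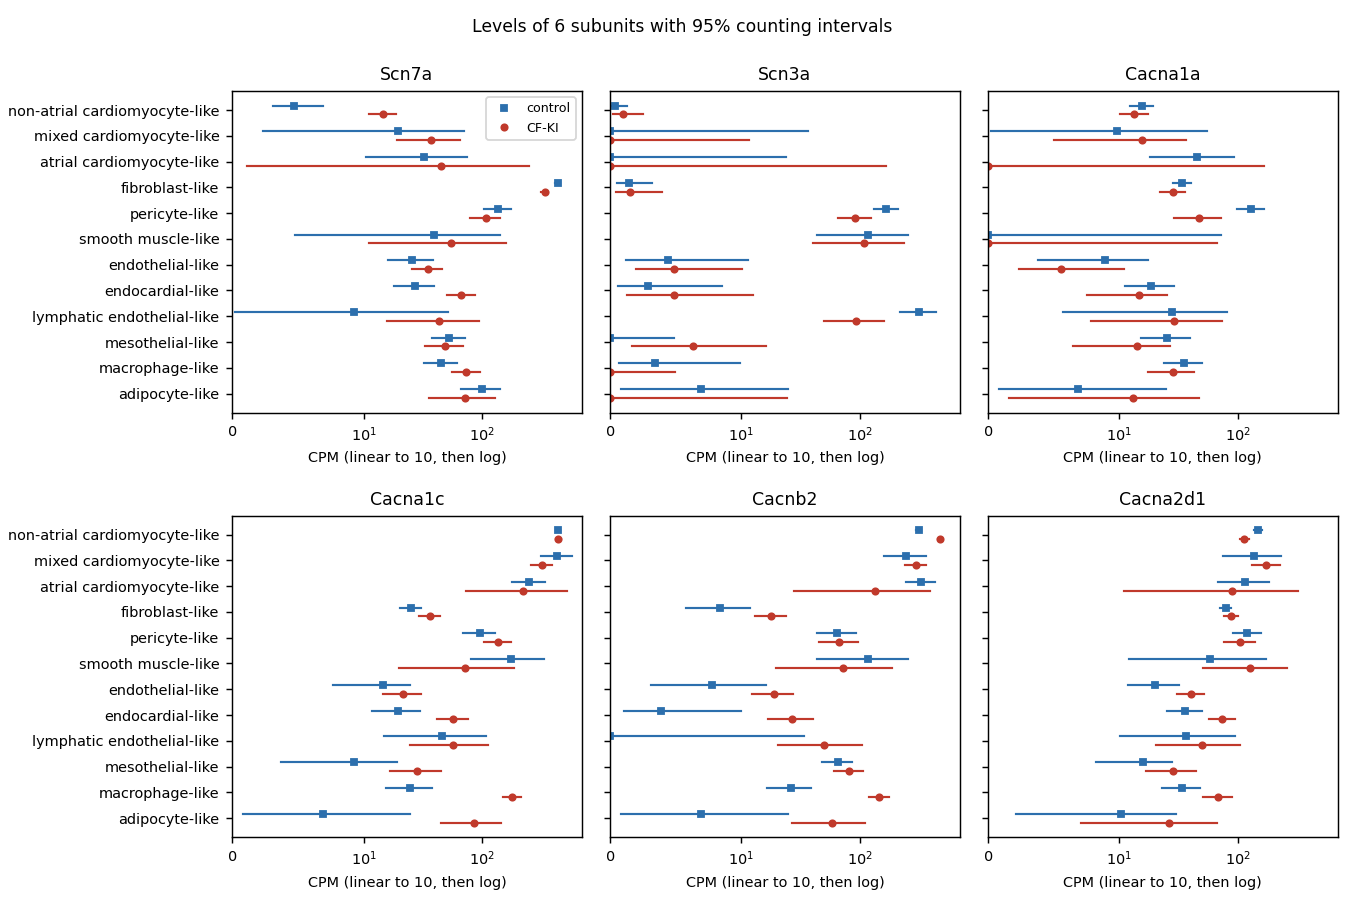
CPM of 6 channel subunits in 12 classes of nuclei, control as blue squares and CF-KI as red circles, with exact 95% Poisson intervals; the axis is linear to 10 CPM and logarithmic above. The Scn7a points of fibroblast-like nuclei (437 and 339 CPM) stand right of all other classes, and the Cacna1c and Cacnb2 points of CF-KI macrophage-like nuclei stand right of the control ones.

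The 16 members under 20 UMIs give no levels by class. Sodium channel genes among them were Scn2b, a beta subunit, with 17 UMIs, the neuronal pores Scn8a with 9, Scn1a with 4 and Scn11a with 1, and Scn9a with 0. Calcium channel pores among them were Cacna1b (N-type) with 11 UMIs, Cacna1i (T-type) with 10 and Cacna1f (retinal L-type) with 3, and Cacna2d4 is an alpha2delta gene with 11. The gamma genes had 9 UMIs for Cacng6, 8 for Cacng1, 1 each for Cacng2, Cacng4 and Cacng5, and 0 for Cacng3 and Cacng8.

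Atrial and non-atrial cardiomyocyte-like nuclei differed in their calcium channel genes. The comparison was made in the control library, where 85 atrial cardiomyocyte-like nuclei with 7 of 7 atrial markers raised were set against 2106 non-atrial ones; CF-KI had 16 atrial cardiomyocyte-like nuclei. The members named here were chosen after their values were seen. Cacna2d2, an alpha2delta subunit, had 22 UMIs and 142 CPM (88.8 to 215) in atrial nuclei and 6 UMIs and 1.09 CPM (0.40 to 2.37) in non-atrial ones, a log2 ratio of 7.02 (5.68 to 8.62). This was the widest gap of the members with a ratio.

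The T-type pore Cacna1h stood at 103 CPM (58.9 to 167) in atrial and 2.18 CPM (1.13 to 3.80) in non-atrial nuclei, a log2 ratio of 5.56 (4.39 to 6.78). Cacna1d likewise had 16 UMIs and 103 CPM (58.9 to 167) in atrial nuclei, against 3.08 CPM (1.80 to 4.94), a log2 ratio of 5.06 (3.98 to 6.14). Both pores are known from pacemaker and atrial tissue, and their intervals did not overlap between the 2 classes. The other T-type pore, Cacna1g, had a log2 ratio of 2.0 (0.89 to 2.94) from 10 atrial UMIs, which was 0.10 without a mitochondrial limit.

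The working L-type channel genes did not share this pattern. Cacna1c was lower in atrial nuclei, at 251 CPM (179 to 343) against 437 CPM (419 to 454), a log2 ratio of -0.80 (-1.29 to -0.34). Across 7 alternative settings this ratio ranged from -0.91 to -0.18. For Cacnb2 the log2 ratio was 0.07 (-0.37 to 0.47) and for Cacna2d1 -0.36 (-1.12 to 0.31), so both intervals held 0. Scn7a and Cacna1a had 5 and 7 atrial UMIs, with log2 ratios of 2.77 (1.03 to 4.18) and 1.55 (0.19 to 2.65). Neither of the Scn7a levels compared here was above the free-RNA estimate. In CF-KI the 16 atrial nuclei had 1 Cacna2d2 UMI, 3 Cacna1h UMIs and 0 Cacna1d UMIs, counts too low to compare the libraries. The 1 Cacna2d2 UMI of CF-KI atrial nuclei stood for 44.9 CPM, and the 15 UMIs of non-atrial CF-KI nuclei for 3.66 CPM. Whether this gene was concentrated in atrial nuclei could therefore be judged in the control library only. With each library clustered alone, no control sub-cluster met the atrial rule.

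**Figure D3:**
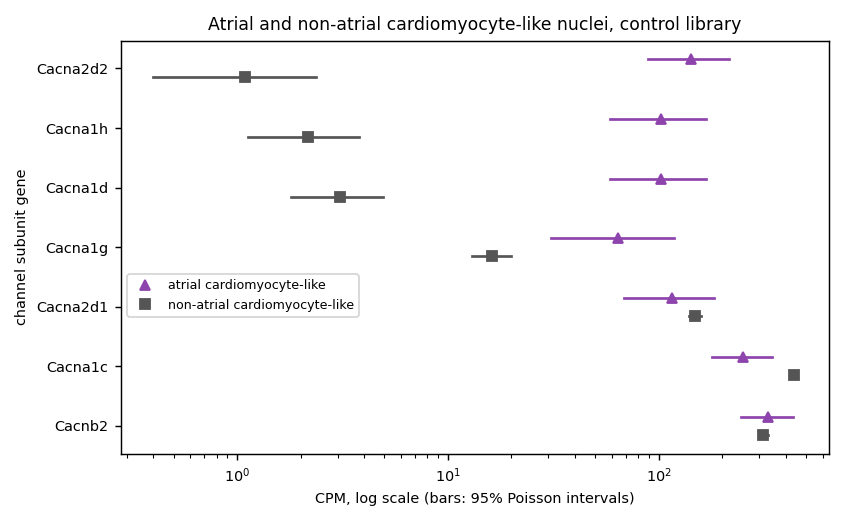
CPM of 7 channel subunits in atrial (purple triangles, 85 nuclei) and non-atrial (grey squares, 2106 nuclei) cardiomyocyte-like nuclei of the control library, on a log axis, with exact 95% Poisson intervals. The intervals of Cacna2d2 (142 against 1.09 CPM), Cacna1h and Cacna1d lie far apart, while the intervals of Cacnb2 and Cacna2d1 overlap.

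CF-KI and control levels were then compared within each class as log2 ratios of CPM, CF-KI over control, with exact conditional intervals. In non-atrial cardiomyocyte-like nuclei, 8 members had at least 50 UMIs over both libraries. Scn7a and Cacnb2 were at least 1.5-fold higher in CF-KI (2 of 8, where 21.4% of 9613 features passed that fold upward) and Cacna1g was at least 1.5-fold lower (1 of 8, with 6.37% downward), which makes 3 of 8 in either direction beside 27.8% of all features. Their median was -0.09, beside 0.14 for all features tested. Scaling by trimmed means or by median ratios moves every ratio of this class by -0.17 or -0.20.

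Cacnb2 had a log2 ratio of 0.60 (0.51 to 0.70), or 1.52-fold, and stood at 0.44 and 0.40 under these scalings. Different sub-clusters held the 2 libraries. One led by AA465934, Dhrs7c and Dbp held 2254 of the CF-KI nuclei and 76 of the control nuclei, and 1356 and 637 control nuclei were in 2 others. The sub-cluster of 1356 was led by the airway epithelial markers Bpifa1, Scgb1a1 and Scgb3a2, and that of 637 by Gbp6, Ucp3 and Rnf144b. In the sub-cluster led by AA465934, Cacnb2 stood at 480 CPM (459 to 503) in CF-KI versus 499 CPM (397 to 620) in the control. In the 2 control sub-clusters it was 301 CPM (282 to 321) and 316 CPM (292 to 340). A sub-cluster led by Meg3 and Rassf9 held 39 CF-KI and 37 control nuclei, with Cacnb2 at 448 CPM (328 to 597) and 351 CPM (258 to 467). The 23 CF-KI nuclei in the sub-cluster of 1356 control nuclei stood at 245 CPM (122 to 438). In each of these 3 sub-clusters with nuclei of both libraries the intervals of the 2 libraries overlapped, and few nuclei of one or both libraries stand behind each.

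Cacna1c had a log2 ratio of 0.02 (-0.07 to 0.11), an interval that held 0. The scalings turned it to -0.14 and -0.18. Cacna2d1 was lower in CF-KI, with a log2 ratio of -0.38 (-0.55 to -0.22), but stood at -0.12 without a mitochondrial limit. Cacna1g had -0.69 (-1.26 to -0.14) and Cacna1a -0.20 (-0.72 to 0.30). The Scn7a ratio of 1.63 (0.95 to 2.36) in this class compares levels that were both below the free-RNA estimate.

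In fibroblast-like nuclei, 12 members had at least 50 UMIs. At least 1.5-fold higher in CF-KI were 2 of 12, Cacnb2 among them, with 10.0% of 10495 features. At least 1.5-fold lower were 5 of 12, among them Cacnb4, Cacna1g, Cacnb3 and Scn2a, with 8.14%. The intervals of Cacna1g (-1.89 to 0.09) and Cacnb3 (-1.56 to 0.08) held 0, and that of Cacnb4 (-1.62 to -0.04) did not. The median was -0.31, beside -0.01 for all features. The Cacnb2 levels in fibroblast-like nuclei were below the free-RNA estimate. Cardiomyocyte markers summed to 14967 CPM in CF-KI versus 5002 CPM in control fibroblast-like nuclei, all 12 of them were detected, and their part in these ratios was not tested.

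Scn7a was lower in CF-KI fibroblast-like nuclei, at a log2 ratio of -0.37 (-0.49 to -0.25). It stood at 0.22 (0.11 to 0.34) once estimated free RNA was subtracted, and at -1.79 with a mitochondrial limit of 5%, which left 112 CF-KI nuclei of this class. The direction therefore depended on how free RNA was treated. Cacna1a stood at -0.25 (-0.68 to 0.17), Cacna2d1 at 0.14 (-0.11 to 0.39) and Cacna1d at 0.02 (-0.48 to 0.51), all with intervals that held 0. Cacna1c had 0.54 (0.11 to 0.96) at levels under the free-RNA estimate, and 3.59 (2.99 to 4.23) at the limit of 5%. Scn2a, named after its value was seen, had -1.46 (-2.38 to -0.63).

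Pericyte-like nuclei had 7 members with at least 50 UMIs, of which 0 were at least 1.5-fold higher in CF-KI (24.3% of 3399 features) and 3 were lower (11.0%). The 3 were Cacna1a at -1.46 (-2.25 to -0.72), Cacnb4 at -1.18 (-1.90 to -0.49) and Scn3a at -0.87 (-1.45 to -0.30). Cacna1c stood at 0.51 (-0.08 to 1.11), Cacna2d1 at -0.19 (-0.79 to 0.40) and Scn7a at -0.34 (-0.92 to 0.23). At a mitochondrial limit of 5%, which left 33 CF-KI nuclei of this class, Cacna1c stood at 1.72 and Scn3a at -2.39, and Scn7a was 0.25 with at least 500 genes per nucleus. In the larger cluster, with 268 CF-KI and 429 control nuclei, Scn3a stood at 109 CPM (73.6 to 156) and 192 CPM (150 to 242), intervals that overlap slightly. Cardiomyocyte markers summed to 14396 CPM and 8765 CPM in this class, and their part was not tested. Scn3a in lymphatic endothelial-like nuclei, named after its value was seen, had -1.75 (-2.79 to -0.79).

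Macrophage-like nuclei had higher CF-KI levels of both main L-type subunits. Cacna1c stood at 179 CPM (150 to 212) in CF-KI versus 24.9 CPM (15.6 to 37.6) in the control, a log2 ratio of 2.85 (2.19 to 3.57). Cacnb2 stood at 145 CPM (119 to 175) and 26 CPM (16.5 to 39.0), a log2 ratio of 2.48 (1.82 to 3.20). Of 6 members with at least 50 UMIs, 4 were at least 1.5-fold higher in CF-KI (15.8% of 5890 features) and 0 lower (21.0%). Among the 4, Cacna1c, Cacnb2 and Cacna2d1 are genes over 300 kb long. The 168 features of that length had a median log2 ratio of 0.45 in this class, beside -0.09 for all features. The part of gene length was not tested. The summed cardiomyocyte markers were 21964 CPM in CF-KI versus 7229 CPM in the control, with ratios to non-atrial cardiomyocyte-like nuclei of 0.391 to 0.839 and 0.0785 to 1.68. Neither CF-KI level was above its free-RNA estimate (159 CPM for Cacna1c and 161 CPM for Cacnb2). With doublets kept the log2 ratios were 1.37 and 1.40, without a mitochondrial limit 0.92 and 0.73, and at a limit of 5% 4.36 and 5.27.

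In the remaining classes few members had 50 UMIs. Endocardial-like nuclei had 4, of which Cacna1c, Scn7a and Cacna2d1 were at least 1.5-fold higher in CF-KI (3 of 4, with 12.9% of 6244 features) and 0 of 4 lower (9.80%), at levels not above the free-RNA estimate in either library. Endothelial-like nuclei had 2, of which Cacna2d1 was higher (1 of 2, with 7.57%) and 0 of 2 lower (10.9%), again not above the estimate. Mesothelial-like nuclei had 2, of which 0 passed 1.5-fold (15.8% upward and 8.96% downward). Cacnb2 there had 0.33 (-0.26 to 0.92), which was -2.52 with free RNA subtracted, 2.25 at a mitochondrial limit of 5% and 1.13 after thinning to 500 UMIs, so its direction and size depended on the processing. Cacnb3 in this class, named after its value was seen, had 40 UMIs and a log2 ratio of -1.76 (-3.09 to -0.61).

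**Figure D4:**
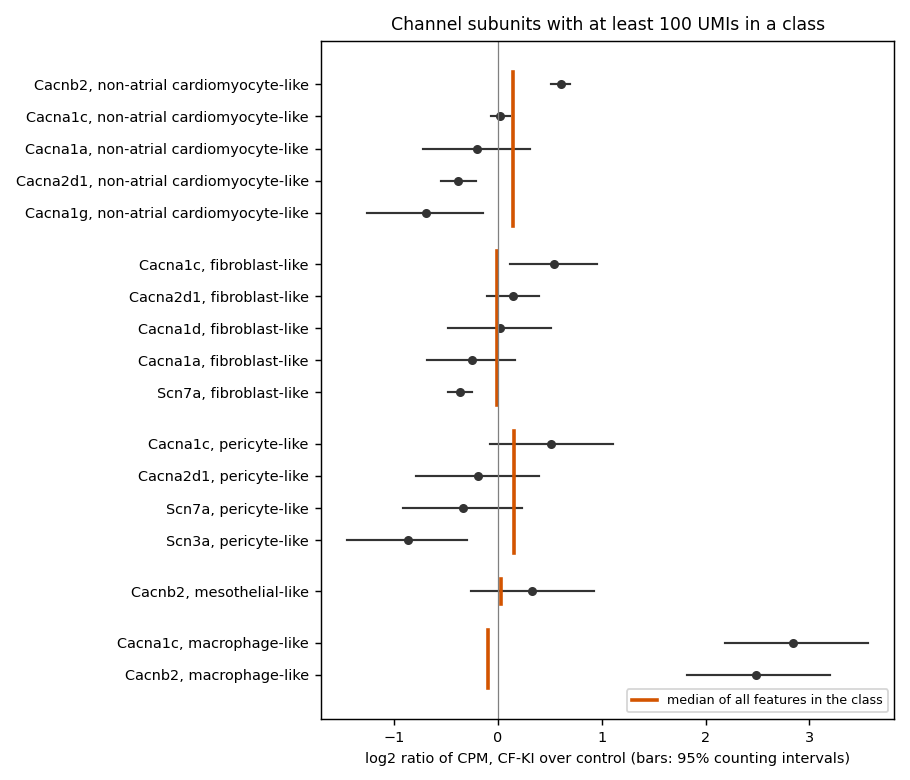
Log2 ratio of CPM, CF-KI over control, for channel subunits with at least 100 UMIs in a class (points, with exact 95% intervals); orange bars mark the median of all features tested in the class. Cacna1c (2.85) and Cacnb2 (2.48) of macrophage-like nuclei lie farthest right, and Scn3a of pericyte-like nuclei (-0.87) farthest left.

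Proteins that bind or regulate these channels were counted from lists of partner genes. In non-atrial cardiomyocyte-like nuclei, 14 of 17 sodium channel partners had at least 50 UMIs, of which 1 was at least 1.5-fold higher in CF-KI and 0 lower. Of 18 calcium channel partners, 10 had at least 50 UMIs, with 3 higher and 0 lower. The lists of transcription factors and of other channels of the superfamily had 4 and 1 genes with at least 50 UMIs, 1 and 0 of them higher and 0 lower. The background shares of this class are those given above, 21.4% and 6.37%.

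Among the highest of the partners with at least 200 UMIs, Calm2 stood at 57.3 CPM and 27.9 CPM, a log2 ratio of 1.04 (0.74 to 1.34). Its product, calmodulin, is the calcium sensor that binds the tails of both channel families. Gata4, a cardiac transcription factor, followed at 0.46 (0.15 to 0.77). The lowest were Rrad, a small GTPase that inhibits L-type channels, at -0.41 (-0.63 to -0.19), Dmd, encoding dystrophin, at -0.28 (-0.34 to -0.21), and Ank2, encoding the adaptor ankyrin-B, at -0.18 (-0.26 to -0.10). In fibroblast-like nuclei 3 of 13 sodium channel partners and 1 of 12 calcium channel partners were at least 1.5-fold higher in CF-KI, and 0 were lower, where 10.0% of all features were higher and 8.14% lower. The 3 were Pkp2 (28.0 CPM and 14.8 CPM), Ank3 (16.7 CPM and 9.64 CPM) and Rangrf (17.9 CPM and 11.9 CPM). In non-atrial cardiomyocyte-like nuclei Pkp2 had 254 CPM and 284 CPM, Ank3 208 CPM and 224 CPM, and Rangrf 13.2 CPM and 9.98 CPM. The part of free cardiomyocyte RNA in these counts was not tested. Of 3 transcription factors 1 was higher and 0 lower. Of 3 other channels of the superfamily 0 were higher and 2 lower: the endolysosomal channels Tpcn1, at -0.66 (-0.91 to -0.41), and Tpcn2, at -1.17 (-2.28 to -0.18), both named after their values were seen.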

How the data were processed

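Nuclear RNA of cardiac tissue from 1 CF-KI and 1 control library was measured with the 10x Genomics 3′ v3 kit, per the labels. The deposited matrices hold whole UMI counts per gene and barcode, made with Cell Ranger 6.1.1 on mm10, per the submitters' processing notes. Whether introns were counted, and the annotation, are not given in the sources used here.

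Features sharing a symbol were summed. Barcodes under 200 genes or over 20% mitochondrial UMIs were left out, and doublets were removed with Scrublet in scanpy 1.11.5 (11.2% of passing CF-KI and 6.33% of control barcodes). Clustering used the nuclei of both libraries, 2000 variable genes, 30 components, 15 neighbours and Leiden resolution 0.8, with channel and partner genes left out. A class needed at least 3 markers raised by a log2 fold of 1. The planned ventricular class could not be named, because no sub-cluster had 3 of its 4 markers raised; the rule for atrial, mixed and non-atrial cardiomyocyte-like nuclei was set after seeing the data, and that mixed class (271 and 48 nuclei) carried markers of both chambers.

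Ratios have conditional binomial intervals at 95%, and lists of ratios use 0.5 added UMIs. They were also run on simulated class sums that held counting error alone, which cannot show effects of free RNA or of differences between libraries. Levels were planned for members with at least 200 UMIs in a class and ratios from 100 UMIs. Other members are given by count or were named after their values were seen. Beyond this plan, levels are also given for members under the limit, such as Scn3a, Cacna1d, Cacna1g, Cacnb3, Cacnb4 and Scn10a. The ratios of Cacna1a and Cacnb4 in pericyte-like nuclei likewise rest on fewer than 100 UMIs each. Of the partners, the 3 highest and 3 lowest ratios from 200 UMIs are named. Some members and partners are not reported here. The members and lists were chosen with earlier results of these data known. Alternatives were other filters, clusterings, scalings, thinning to 500 UMIs and subtraction of free RNA. TMM factors come from edgeR 4.0.16. Positions come from GENCODE vM21. No tests were made, since there is 1 library per group.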

Additional observations from a re-analysis of the deposited data

Results flagged for a closer look

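Cacna2d1 and Scn7a had log2 ratios, CF-KI over control, that pointed in opposite directions in different classes with intervals that did not hold 0. For Cacna2d1 the ratio was 1.05 in endocardial-like, 1.01 in endothelial-like and 1.02 in macrophage-like nuclei, and -0.38 in non-atrial cardiomyocyte-like nuclei. For Scn7a it was 1.30 in endocardial-like, 0.71 in macrophage-like and 1.63 in non-atrial cardiomyocyte-like nuclei, and -0.37 in fibroblast-like nuclei. With 1 library per group these differences between classes were not tested. Every positive ratio here compares levels that were not above the free-RNA estimate in either library.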

How the results depend on the processing

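No paired analysis was possible because each group has 1 library. Alternatives gave 376 values for 39 results. Of 360 log2 values, 29 had the opposite sign to the reported value, in 15 of 37 results. In 2 of these the reported interval did not hold 0: the Scn7a ratio of fibroblast-like nuclei (-0.37) was 0.22 with free RNA subtracted, and the Cacna1a atrial over non-atrial log2 ratio (1.55) was -0.44 at a mitochondrial limit of 5%. The cause was not tested. The count of members past 1.5-fold in non-atrial cardiomyocyte-like nuclei, 3 of 8, was 5 of 12 without a mitochondrial limit and 6 of 18 at 20 UMIs; it was 1 of 7 with free RNA subtracted, 1 of 4 after thinning to 500 UMIs, 1 of 4 at 200 UMIs and 1 of 8 at a fold of 2. The member median of that class stayed between -0.29 and 0.05. The fibroblast median of -0.31 was 0.28 at a limit of 5%, with 6 members left. A limit of 10 or 50 UMIs gave 28 or 21 measured members. The control log2 level of Scn7a in fibroblast-like nuclei over the next class (1.68) was 0.28 with each library clustered alone. In that setting 2334 control nuclei were named erythroid-like and 1299 fibroblast-like, against 4 and 3484 in the main classes. The part of this change of names in the lower value was not tested. The Cacna2d2, Cacna1h and Cacna1d atrial log2 ratios were 5.28, 4.48 and 3.43 at the lowest, where an atrial class was found; with each library clustered alone they could not be computed. The atrial alternatives were chosen after seeing the data. Members under 50 UMIs in a class are limited by depth, and 3 UMIs in control atrial nuclei already stand for 19.3 CPM.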
